A study of Mus musculus with 2 samples.

Results

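ATF4 amino acid response genes are described here as 10 genes chosen by name, with earlier results of these data known. All 10 were found by Ensembl identifier among the 46983 genes of the count table. They are Atf4 itself and Ddit3, Trib3, Nupr1, Chac1, Asns, Psat1, Phgdh, Slc7a11 and Sesn2, which ATF4 is known to induce. The data are 2 RNA sequencing libraries from 46C cells, a line of mouse embryonic stem cells. One library is labelled linc1557 knockdown and comes from cells in which the long noncoding RNA linc1557 was targeted by a hairpin RNA in the pLKO.1-TRC vector. The other is labelled control shRNA. Both cultures grew on feeder cells in serum medium with leukaemia inhibitory factor, glutamine and added nonessential amino acids, and in both stably infected clones were picked after puromycin selection. How many clones, cultures or feeder batches stand behind each library is not given in the sources used here.

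ATF4 is a basic leucine zipper transcription factor whose mRNA is translated preferentially when the translation initiation factor eIF2alpha is phosphorylated. Kinases that sense uncharged tRNA, endoplasmic reticulum stress, double-stranded RNA or lack of haem carry out that phosphorylation. ATF4 then binds composite C/EBP-ATF elements and induces genes for amino acid synthesis, amino acid uptake and tRNA charging, together with regulators that limit the response. Pluripotent cells are known to depend on the supply of several amino acids. Transcript counts measure none of eIF2alpha phosphorylation, ATF4 translation or ATF4 protein.

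With 1 library per group there was no replicate check and no test, so each difference is between 2 libraries and not shown for the conditions. A ratio is the knockdown over the control level after TMM scaling, which sets both libraries on a common size, and its bracketed 95% interval covers counting error alone. Calls of higher or lower required a ratio of at least 2-fold and an interval that excluded 1. All 10 genes passed the filter of 1 CPM (the count scaled to its library's TMM size) in either library, as 15850 genes did in all. No row carries the name linc1557, whose level was not analysed here, so the labels carry no check of the knockdown. Library totals were 26693282 (knockdown) and 23146210 (control) counts.

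All 10 genes had ratios above 1, and 3 of them, Nupr1, Chac1 and Trib3, were called higher, while none was lower. Over all entered genes 4.68% were called higher and 9.48% lower. The 10 genes were chosen with earlier results of these data known, so these shares are set side by side as description only. At a threshold of 1.5-fold, 6 of the 10 were higher (with Asns, Ddit3 and Atf4 added), where 11.5% of all genes were. Under TMM scaling the interval lay above 1 at any fold for 9 of the 10, compared with 32.8% of all genes. For Slc7a11 it did so only just, with a lower log2 bound of 0.0064. The median log2 ratio of the 10 genes was 0.89, and over all entered genes the median was 0.02 and the quartiles were -0.35 and 0.33. The lowest ratio belonged to Sesn2, whose sign turned when libraries were scaled by total counts (-0.06) or ratios were centred by mean level (-0.0086).

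The core of the C/EBP-ATF element, TGATGNAA, was searched on both strands of RefSeq promoter windows (GRCm38.p6, 250 bases before to 50 after each start), which covered all 10 genes. It was found in 5 of the 10, namely Asns, Chac1, Nupr1, Slc7a11 and Trib3, and in 4.51% of 27025 genes with a window (3.97% of 32851 windows). The 10 were chosen as Atf4 and its known targets, so their share describes the list and not these libraries. The 5 stretches are shown because they hold the 3 genes called higher and both orientations of the element, with the match in capitals and each sequence written 5′ to 3′ on the strand of its gene.
Chac1, chr2:119351023-119351082, plus strand: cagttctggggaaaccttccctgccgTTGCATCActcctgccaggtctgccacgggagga
Nupr1, chr7:126625562-126625591, minus strand: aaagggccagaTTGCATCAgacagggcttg
Trib3, chr2:152344028-152344057, minus strand: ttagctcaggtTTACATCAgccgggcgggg
Asns, chr6:7693214-7693243, minus strand: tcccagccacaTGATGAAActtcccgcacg
Slc7a11, chr3:50443637-50443696, minus strand: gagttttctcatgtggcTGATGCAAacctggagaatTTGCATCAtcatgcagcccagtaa
Counted from the RefSeq start, the matches begin at base -193 in Chac1, -110 in Nupr1, -23 in Asns and -66 and -47 in Slc7a11. In Trib3 the match begins at base 15, after the RefSeq start, but before the start in GENCODE M21 at base 152344032. The stretches of Nupr1, Trib3 and Asns overlap an exon of the gene in that annotation, so position relative to the start depends on the annotation. Chac1, Nupr1 and Slc7a11 hold the form TTGCATCA, read on the opposite strand. No match was present in the windows of Atf4, Ddit3, Psat1, Phgdh and Sesn2, and an element outside the window would not be seen.

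Outside the 10 genes, 283 entered genes had the motif in a window, and 24 of them (8.48%) were called higher and 28 (9.89%) lower. Of 10288 entered genes with a window and no match, 442 (4.3%) were higher and 988 (9.6%) lower. The median log2 ratios of these groups were nearly the same, at 0.01 with the motif and 0.02 without it. The ER stress element, a longer motif of the unfolded protein response searched the same way, was in none of the windows of the 10 genes and in 0.137% of all genes with a window. A motif match describes letters in a window, and binding was not measured.

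Among the regulators, Atf4 had 5972 knockdown and 3196 control counts, which is 233 against 133 CPM. The knockdown library was the higher one, by 1.76-fold (1.68 to 1.84), short of the 2-fold call. Atf4 (ENSMUSG00000042406) lies on chromosome 15 from 80255184 to 80257541 in GRCm38. Ddit3 encodes CHOP, a leucine zipper partner of C/EBP factors that is induced when the stress response persists. It had 411 against 198 counts, or 16.04 against 8.21 CPM, and a ratio of 1.95-fold (1.65 to 2.33). Its interval spans the call threshold, and Ddit3 was called higher with DESeq2 size factors (log2 ratio 1.01) and after thinning of the deeper library (1.02).

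The exons of Ddit3 share 68 bases with those of the methionyl-tRNA synthetase gene Mars on the opposite strand. Mars had 3269 knockdown and 2674 control counts, many more than Ddit3. The strand setting of the counting is not given in the sources used here, so reads of the shared bases cannot be assigned to either gene. A second Ddit3 entry of the annotation (ENSMUSG00000116429), protein-coding and on the same strand, shares 105 exon bases and was not analysed here. The exons of a noncoding gene on the opposite strand, Gm4189, share 13 bases with Ddit3 and had 3 and 1 counts.

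Trib3 encodes a pseudokinase that binds ATF4 and dampens its activity. It had 681 knockdown and 287 control counts, 26.6 against 11.9 CPM. The ratio of 2.23-fold (1.94 to 2.57) was called higher, though its interval spans the call threshold. With total counts the log2 ratio of Trib3 was 1.04. In GRCm38, Trib3 (ENSMUSG00000032715) lies on chromosome 2 from 152337422 to 152344032 and Nupr1 (ENSMUSG00000030717) on chromosome 7 from 126623249 to 126630861. Nupr1 encodes a small stress-induced nuclear protein that acts with transcription factors. With 603 against 212 counts, 23.5 against 8.79 CPM, it had the highest ratio of the 10 genes, 2.68-fold (2.29 to 3.15). The intervals of Nupr1 and Chac1 overlap with that of Trib3, so their order is not resolved even by counting error. The intervals of Nupr1, Chac1 and Trib3 lie above that of Atf4, so all of them differed more between the libraries than Atf4 mRNA did.

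Chac1 and Slc7a11 act on glutathione and its precursor cystine. Chac1 encodes an enzyme that cleaves glutathione in the cytosol. It had 572 knockdown and 207 control counts, 22.3 against 8.58 CPM, and was 2.60-fold higher (2.21 to 3.06). Chac1 (ENSMUSG00000027313) lies on chromosome 2 from 119351229 to 119354381 in GRCm38. Chac1 and Nupr1 exceeded or equalled the ratios of 97.6% and 97.8% of entered genes. Slc7a11 encodes the exchanger that imports cystine for glutamate. It was barely expressed, with 86 against 57 counts, 3.36 against 2.36 CPM. Its ratio of 1.42-fold (1.00 to 2.02) is the least precise of the 10, with an interval that reaches from almost no difference to about 2-fold.

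The annotated exons of Slc7a11 span 13922 bases and include a stretch of up to 375 bases that is at least 95% identical to alpha-tubulin transcripts. Such stretches were found in 11 other genes, of which 8 are in the table with 45264 knockdown and 47796 control counts together. How reads of such a stretch were assigned is not given in the sources used here, so the low count of Slc7a11 is uncertain. The span of Slc7a11 also holds 5 other annotated genes, with no shared exon bases and at most 9 counts in either library. Without Slc7a11 and Phgdh, whose sequence is also shared, 3 of the 8 remaining genes were called higher and the median log2 ratio was 0.96.

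The enzymes of amino acid synthesis were the most abundant members per length after Atf4, and none of the 3 was called. Asns encodes asparagine synthetase, which makes asparagine from aspartate and glutamine. It had 7507 knockdown and 3626 control counts, 293 against 150.4 CPM. The ratio of 1.95-fold (1.87 to 2.03) fell just under the threshold and passed it with DESeq2 size factors, at a log2 ratio of 1.00. Asns (ENSMUSG00000029752) lies on chromosome 6 from 7675169 to 7693254 in GRCm38. Both Ddit3 and Asns thus stand at the edge of the call, as does Trib3 on the other side of it. The count of 3 becomes 5 under that scaling, where higher calls over all 15850 genes went from 742 to 819.

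Phgdh and Psat1 catalyse the first and the second step of serine synthesis from a glycolytic intermediate. Psat1 had 7382 against 4946 counts, 288 against 205 CPM, and a ratio of 1.40-fold (1.35 to 1.46). A pseudogene within its span, Gm3329, shares no exon bases with it and had 0 and 5 counts. Phgdh had 2364 against 1919 counts, 92.3 against 79.6 CPM, a ratio of 1.16-fold (1.09 to 1.23). The 3 enzymes had separate intervals, with Asns highest and Phgdh lowest. Stretches at least 95% identical to Phgdh transcripts occur in 16 other annotated genes, up to 1608 bases long, most of them named as predicted genes. Only 7 of these are in the table, with 62 knockdown and 63 control counts. Reads that match several copies may have been dropped or divided, so the level of Phgdh is uncertain.

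Sesn2 encodes sestrin 2, a leucine-binding protein that restrains the growth kinase complex mTORC1 and is also a known target of p53 and NRF2. It had 1470 knockdown and 1333 control counts, 57.4 against 55.3 CPM. Its ratio of 1.04-fold (0.963 to 1.12) did not differ from 1 within counting error, alone among the 10 genes. It stood at the middle of all entered genes, at or above 52.6% of their ratios. A noncoding gene within its span, Gm12981, shares no exon bases with it and had 89 and 64 counts.

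**Figure D1:**
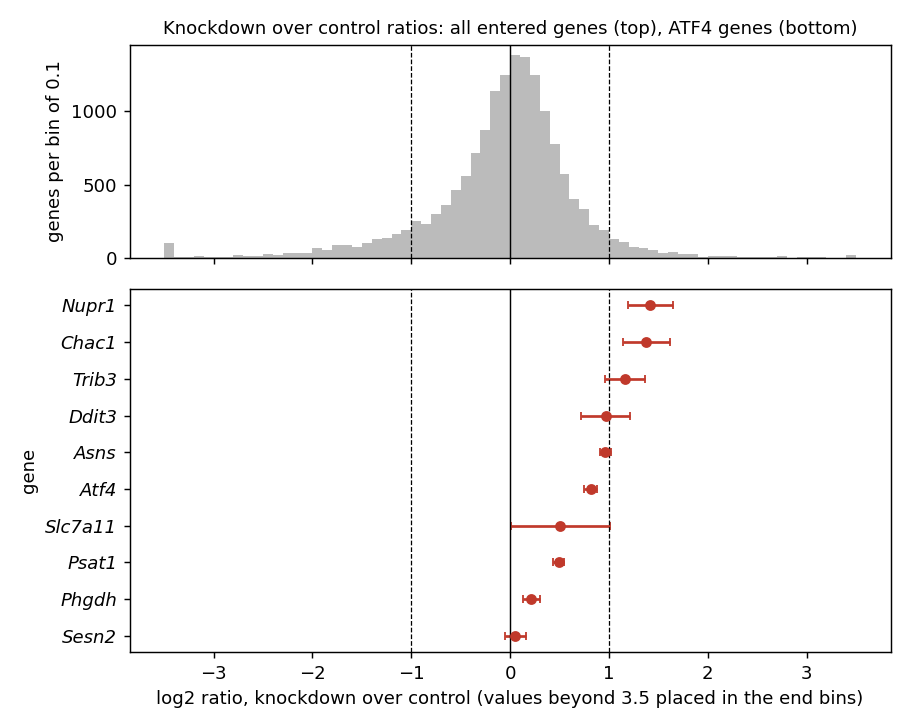
Log2 ratios of knockdown over control on the horizontal axis. The upper panel counts all 15850 entered genes per bin of 0.1, with values beyond 3.5 placed in the end bins. The lower panel gives the 10 ATF4 response genes as points with 95% counting intervals, and dashed lines mark 2-fold. Nupr1, Chac1 and Trib3 lie beyond the right dashed line, Ddit3 and Asns next to it, and Sesn2 at 0.

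Levels of different genes were compared per length, as TPM (the usual share of transcripts) computed from the deposited counts and gene lengths. TPM are shares within 1 library and are not TMM-scaled, so their ratios are smaller here than the ratios given above, and for Sesn2 the TPM was lower in the knockdown library. In the control library Atf4 stood highest at 96.2 TPM (92.9 to 99.6), before Asns at 68.8, Psat1 at 60.3, Phgdh at 40.1 and Sesn2 at 19.9. Below them came Trib3 at 7.01 (6.22 to 7.87), Chac1 at 6.56 (5.70 to 7.52) and Ddit3 at 5.997 (5.19 to 6.89), whose intervals overlap. Nupr1 followed at 4.38 (3.81 to 5.01) and Slc7a11 at 0.212 (0.161 to 0.275). The deposited length of Atf4 is 1724 bases, while its exons in GENCODE M21 cover 2358 bases, so its level per length depends on the annotation used.

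In the knockdown library the order of the 5 most abundant genes was the same, with Atf4 at 150.5 TPM, Asns at 119, Psat1 at 75.4, Phgdh at 41.3 and Sesn2 at 18.4. Chac1 (15.2, 14.0 to 16.5) and Trib3 (13.9, 12.9 to 15.0) had overlapping intervals, as had Ddit3 and Nupr1, both at 10.4 TPM. Chac1 and Trib3 thus came closer to Sesn2 than in the control library. Among all entered genes, Atf4 ranked at place 366 by TPM in the knockdown library, Asns at 457, Chac1 at 3579 and Slc7a11 at 15030.

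**Figure D2:**
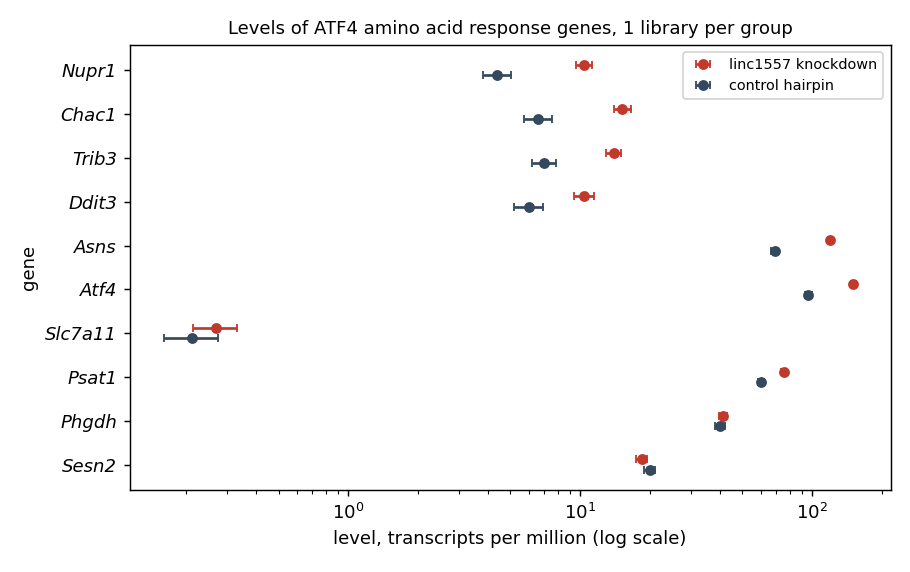
Level of each gene in TPM (log axis) in the knockdown (red) and the control library (dark blue), 1 library each, with 95% Poisson intervals for counting error. Genes are ordered by their ratio. Points of Nupr1, Chac1, Trib3, Ddit3, Asns, Atf4 and Psat1 are separated between the libraries, and those of Phgdh, Sesn2 and Slc7a11 overlap in their intervals.

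Upstream of ATF4, the list of eIF2alpha kinases, phosphatase subunits and eIF2 and eIF2B subunits had 16 entered genes. Of these 1 was called higher, near the 4.68% of all genes, none was lower, and the median log2 ratio was 0.15. The gene called was Eif2ak2, which encodes PKR, the kinase that senses double-stranded RNA and is itself induced by interferon. It had 1817 knockdown and 721 control counts and was 2.37-fold higher (2.17 to 2.59). The other kinase genes were close to 1. Eif2ak3, for the endoplasmic reticulum kinase PERK, had 868 against 685 counts and a ratio of 1.19-fold (1.08 to 1.32). Eif2ak4, for GCN2, which senses uncharged tRNA, had 803 against 705 counts (1.07-fold, 0.968 to 1.19), and Eif2ak1, for the haem-regulated kinase, 1150 against 1041 counts (1.04-fold, 0.955 to 1.13). Only for Eif2ak2 and Eif2ak3 did the interval exclude 1 under TMM scaling. With total counts the log2 ratio of Eif2ak3 was 0.14, against 0.25 with TMM, and its interval then no longer excludes 1.

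Other transcription factors and effectors downstream of ATF4 were mostly not called. Of 13 listed, 12 entered, 1 was called higher and none lower, with a median log2 ratio of 0.26. Gdf15, which encodes a stress-induced hormone, was 2.80-fold higher (1.90 to 4.20) from 107 against 36 counts. It did not pass a filter of 5 CPM. At 1.5-fold 2 of the 12 were higher, Gdf15 and Cebpg, the latter named after its value was seen, with a log2 ratio of 0.63. Shares over all genes were 4.68% at 2-fold and 11.5% at 1.5-fold, so neither count stands far from them.

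Serine, one-carbon and other amino acid synthesis genes had 19 entered members, of which 1 was called higher and none lower, with a median of 0.36. Over all genes 4.68% were higher and 9.48% lower at 2-fold. The count was 3 with DESeq2 size factors, which added Pycr1 and Psph (log2 ratios of 1.01 each). Aldh1l2, a mitochondrial enzyme that oxidises formyltetrahydrofolate, had 534 knockdown and 166 control counts, 3.03-fold higher (2.54 to 3.63). At the 1.5-fold threshold 7 of the 19 were higher and none was lower, where 11.5% and 16.4% of all genes were. Besides Aldh1l2 these were, named after their values were seen, Pycr1 (log2 ratio 0.97), Psph (0.97), Bcat1 (0.91), Gpt2 (0.86), Shmt2 (0.62) and Cth (0.59). Psph catalyses the last step of serine synthesis, after Phgdh and Psat1. Pycr1 acts in proline synthesis, Gpt2 makes alanine, Bcat1 transfers amino groups of branched-chain amino acids, Shmt2 converts serine to glycine in mitochondria, and Cth makes cysteine from cystathionine.

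None of the 20 cytosolic aminoacyl-tRNA synthetase genes, whose products charge tRNAs, was called, against 4.68% of all genes higher and 9.48% lower. The median log2 ratio of the 20 was 0.35, and 16 had an interval above 1 and 3 an interval below 1, against 32.8% and 31.2% of all genes. The values ran from -0.43 to 0.65. The most abundant in the control library were Kars, with a log2 ratio of 0.19 (0.13 to 0.24), and Tars, with 0.33 (0.28 to 0.38). At 1.5-fold 2 of the 20 were higher, Nars (0.65) and Eprs (0.62), named after their values were seen, which is no larger a share than the 11.5% of all genes.

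Amino acid transporters went both ways. Of 11 genes, none was called higher and 1 was lower, with a median of 0.18. These counts are near the shares over all genes, 4.68% higher and 9.48% lower. The lower gene was Slc43a1, a carrier of large neutral amino acids, with 50 knockdown and 185 control counts, 3.93-fold lower (2.86 to 5.49). At 1.5-fold 2 of the 11 were higher, against 11.5% of all genes. They were Slc1a5 (log2 ratio 0.98), a glutamine carrier, and Slc7a1 (0.90), a carrier of cationic amino acids, both named after their values were seen. With DESeq2 size factors Slc1a5 was called higher at 2-fold (1.02).

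The other stress programmes that share targets with ATF4 showed no gene called at 2-fold, where 4.68% of all genes were higher and 9.48% lower. Of 19 genes of the ATF6 and XBP1 arm of the unfolded protein response, which raises folding capacity in the endoplasmic reticulum, 0 were called and the median log2 ratio was -0.07. The chaperone genes Hsp90b1 and Calr, the most abundant of that list, stood at -0.25 and -0.18. Intervals lay below 1 for 10 of the 19 and above 1 for 5, against 31.2% and 32.8% of all genes, and at 1.5-fold Herpud1 was higher (0.78) and Edem1 lower (-0.63), both named after their values were seen. Of 12 entered NRF2 target genes 0 were called, with a median of 0.10. Txnrd1, thioredoxin reductase, had a log2 ratio of 0.28 and Tkt, transketolase, 0.04. Of 10 p53 target genes 0 were called, and the median was -0.18, with Ccng1 at -0.19 and Bax at -0.13. Intervals lay below 1 for 8 of the 10 and above 1 for 1, and at 1.5-fold Phlda3 (-0.74), named after its value was seen, was lower. For the NRF2 targets the intervals were below 1 for 3 and above 1 for 6 of the 12, and none passed 1.5-fold. Over all genes 11.5% were higher and 16.4% lower at 1.5-fold. The signs in these 3 lists are relative to the TMM scaling, and scaling by total counts moved the median of all genes from 0.02 to -0.10.

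**Figure D3:**
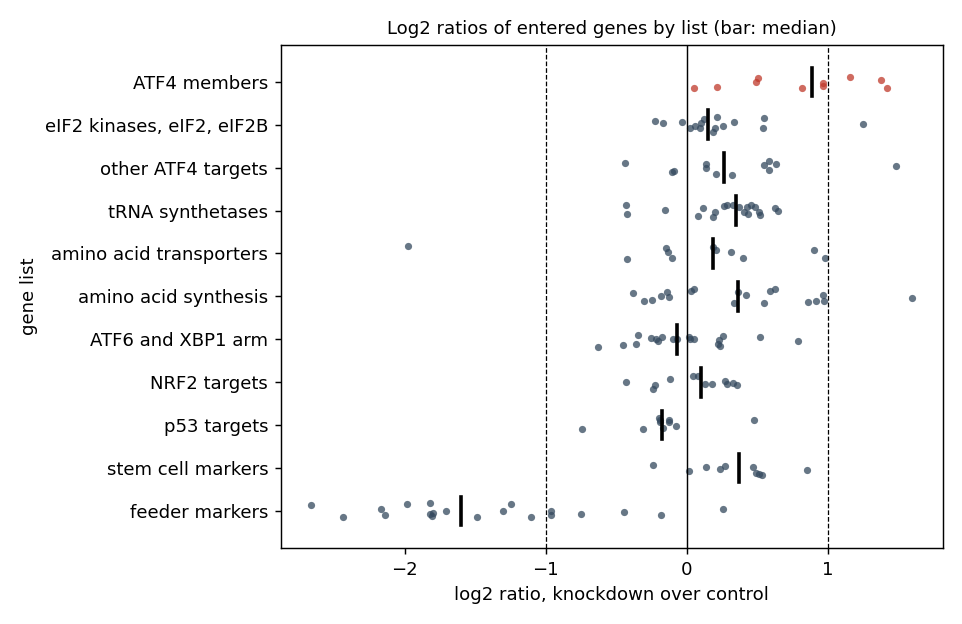
Log2 ratio of each entered gene (points) on the horizontal axis, by gene list on the vertical axis, with the list's median as a bar and dashed lines at 2-fold. The 10 ATF4 response genes (red) have a median of 0.89, above the medians of the other lists, and the feeder markers lie mostly left of 0, with a median of -1.60. Members and lists were chosen with earlier results of these data known.

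Markers of the labelled cell type were present in both libraries. Of 10 embryonic stem cell markers 0 were called, where 4.68% of all genes were higher and 9.48% lower. With 10 genes, that count stands near those shares. The median log2 ratio of these markers was 0.37, near those of the tRNA synthetase (0.35) and amino acid synthesis lists (0.36). Intervals lay above 1 for 8 of the 10 and below 1 for 1, against 32.8% and 31.2% of all genes. At 1.5-fold 1 was higher, against 11.5% of all genes. Of 20 feeder fibroblast markers 14 were called lower, against 9.48% of all genes, with a median of -1.60. This list too held an exception, with intervals below 1 for 18 of the 20 and above 1 for 1. The summed level of the 20 feeder markers was 237 TPM (knockdown) against 487 TPM (control), and none was at 0 counts. Of 10 macrophage markers 6 entered and 3 were lower, against the same 9.48% of all genes. The summed level of the 10 was 25.02 (knockdown) against 39.8 TPM (control), with none at 0 counts. The macrophage list did not go one way, as 1 of the 6 had an interval above 1 and was higher at 1.5-fold. With a filter of 5 CPM only 2 entered, of which 1 was lower, where 728 of all 11534 entered genes were. In bulk RNA, fewer cells of a type and less RNA per cell cannot be told apart, and the part of the feeder cells in the ratios of the ATF4 response genes was not tested.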

How the data were processed

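The authors deposited a table of raw read counts per gene for 2 samples, with a gene length column. Trim Galore, HISAT2, featureCounts and DESeq, with builds mm10 and GRCm38, are named per the submitters' processing notes. Not given in the sources used here were versions, annotation release and strand setting. Of 46983 identifiers, 46488 matched GENCODE M21 (GRCm38). TMM factors were 0.960 (knockdown) and 1.04 (control) (edgeR 4.0.16, R 4.3.3). Ratios carry no pseudocount. Their exact 95% Clopper-Pearson intervals, and Poisson intervals of TPM, cover counting error only, and reads are not independent molecules. A count of 0 would be set to a floor of 3 counts. Intervals came from scipy 1.17.1 and tables from pandas 2.3.3 under Python 3.11.15, with figures by matplotlib 3.10.9. The call rule was tried on simulated counts that held counting error alone. That trial cannot show how the rule does under variation between cultures or libraries. Copies were sought with blastn at 95% identity over at least 100 bases. Members and lists were chosen with earlier results of these data known. Named genes are the 10 members, the 4 eIF2alpha kinases and genes that overlap a member. For each pathway list up to 4 called genes were added, or else the 2 most abundant in the control library. Another 14, past 1.5-fold in those lists, were named after their values were seen, and the text says so. Alternatives covered scaling (DESeq2 1.42.0 size factors among them), filters, a prior count of 2, thinning, centring in 20 bins and fold thresholds.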

Additional observations from a re-analysis of the deposited data

How the results depend on the processing

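The count of 3 genes called higher was 5 with DESeq2 size factors, 6 at a 1.5-fold and 0 at a 4-fold threshold. It was 3 or 4 under the other alternatives, and no member was called lower under any. Leaving out Phgdh and Slc7a11, an alternative chosen after seeing the data, also gave 3. The median log2 ratio of the members ranged from 0.77 to 0.96 over the settings. Over all genes, 742 higher and 1503 lower calls among 15850 genes became 330 and 728 among 11534 with a filter at 5 CPM. Calls thus fell by a larger share than entered genes did, so a smaller share of genes was called at that filter. The shares over all genes given above are for the filter of 1 CPM. Of the 9 members past 5 CPM, 3 were called higher. Calls over all genes were 1817 higher and 2598 lower at 1.5-fold, and 152 and 389 at 4-fold. For 39 named genes under 7 alternatives of scaling, prior count, thinning and centring at 2-fold, no call was lost or reversed. Of 273 values 6 gained a call (Ddit3 in 2, Asns, Psph, Pycr1 and Slc1a5 in 1 each). A further 33 values, of genes not called in the main setting, moved outside their counting interval of that setting. Atf4 did so with total counts, at a log2 ratio of 0.70. Fold thresholds change calls by construction. No paired analysis was possible because each group has 1 library, and no library could be left out. Depth limits Slc7a11 most among the members.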
